A study of Homo sapiens with 18 samples.

Results

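The genes described here encode the cyclins that act after the G1 restriction point, the kinase they activate at mitosis and its small subunits. They are CCNE1, CCNE2, CCNA2, CCNB1, CCNB2, CCNF, CDK1, CKS1B and CKS2. They were chosen by name, as 9 of the 20705 gene symbols in the count table. No measured value served as a criterion, but earlier results of these data were known when they were chosen. CDK2, the partner of cyclins E and A, was not analysed here. All 9 genes had between 66 and 9489 reads in each of the 18 libraries, so none was left out for low counts.

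RNA was sequenced from CHL1 and A375, which are established human melanoma cell lines from ATCC, each labelled wild type for genotype in the sense that no gene was altered for the study. CHL1 carries wild-type BRAF and NRAS and a mutated p53 gene and was grown in DMEM, whereas A375 carries a BRAF mutation and wild-type p53 and was grown in RPMI-1640. CHL1 cells received DMSO for 72 hours, 1 μM palbociclib (CDK4/6i) for 72 hours or 6 days, or 500 nM GSK3326595 (PRMT5i) for 72 hours. A375 cells received the same treatments and also had a DMSO control of 6 days. The names of the A375 libraries labelled as PRMT5 inhibition hold the letters CTX, which the sources used here do not explain, and the treatment label was followed. Each of the 9 groups had 2 libraries, and the CHL1 samples of 6 days were compared with the DMSO control of 72 hours, which all CHL1 treatments share. In A375, CDK4/6i and PRMT5i at 72 hours share their control too. Each line is 1 model of melanoma, and the treatment protocol says that replicates were grown without saying how far apart in time or passage, so p-values measure only the spread between these samples, which may be technical.

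Cyclin E binds CDK2 at the entry into S phase, cyclin A2 binds CDK2 in S phase and CDK1 in G2, and B-type cyclins bind CDK1 to start mitosis. CKS1B and CKS2 are small proteins that dock on these kinases and help them to phosphorylate their substrates repeatedly. Palbociclib blocks CDK4 and CDK6, which with D-type cyclins phosphorylate the retinoblastoma protein and so release E2F factors, for which the cyclin E genes are known targets. The genes of cyclins A2, B1, B2 and F, of CDK1 and of the CKS proteins peak later in the cycle and are also bound by the DREAM complex and by B-MYB and FOXM1. GSK3326595 inhibits PRMT5, an arginine methyltransferase that modifies spliceosomal proteins, histones and other substrates.

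The libraries held between 16213475 and 37424081 counts. A library's GC trend is given here as the median log2 deviation from its cell line's median for the 10% of genes with the highest GC content, minus that for the 10% with the lowest. CHL1 cells under PRMT5i had trends of -2.49 (replicate 1) and -1.98 (replicate 2). The 6-day DMSO libraries of A375 had -2.27 and -1.12, and every other library lay between -0.17 and 0.50. Those 4 libraries thus held relatively more reads of AT-rich transcripts, and results that rest on them are given below also after a correction for GC content, and, for A375 at 6 days, against the control of 72 hours. By their names, all CHL1 and all 6-day A375 libraries form 1 set, and a second set holds A375 at 72 hours. MITF, the master regulator of melanocytes, lay between 63.8 and 211 CPM (reads per gene, scaled to equal library sizes) in all libraries. The pigment enzyme TYR reached 0.0717 CPM in CHL1 and 5.02 CPM in A375. DCT went the other way, with 36.3 to 142 CPM in CHL1 and at most 1.79 CPM in A375. TYRP1 reached 4.01 CPM in CHL1 and 0.772 CPM in A375, and PMEL 1.83 and 3.25 CPM. S100B lay between 11.2 and 128 CPM in CHL1 and between 3.57 and 108 CPM in A375. Of the 8 melanocyte markers 6 were in the table, as were 4 of 6 markers of other cell types. PTPRC, a leukocyte marker, lay between 7.41 and 16.8 CPM in CHL1 and at most at 0.588 CPM in A375, and KRT5, a keratin of basal epithelium, was at 0 in all CHL1 libraries. KRT14, its partner keratin, reached 10.5 CPM in A375. The part of other cells in the results was not tested.

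The genes lie on 9 different chromosomes. On GRCh37 they span chr19:30302898-30315219 (CCNE1), chr8:95891998-95908906 (CCNE2), chr4:122737599-122745038 (CCNA2), chr5:68462962-68474072 (CCNB1), chr15:59397325-59417244 (CCNB2), chr16:2479395-2508855 (CCNF), chr10:62538089-62554610 (CDK1), chr1:154947129-154951727 (CKS1B) and chr9:91926110-91931618 (CKS2). CCNE2 and CCNA2 lie on the minus strand and the others on the plus strand. The longest transcripts of CCNE2 and CDK1 have the lowest GC contents of the 9, 36.88% and 36.96%. Those of CKS2, CCNA2 and CCNB1 lie between 41.4% and 41.9%, those of CKS1B and CCNB2 at 43.7% and 44.4%, and those of CCNE1 and CCNF at 51.7% and 57.3%.

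Per kilobase of merged exons, CKS2 and CCNB1 were the most abundant of these mRNAs in control cells and the cyclin E mRNAs were among the rarest. Merged exons join all isoforms and can be longer than any transcript. They hold 3909 bases for CDK1 and 2340 for CKS1B, whose longest transcripts have 1948 and 1166, so the order may depend on the length used. On this scale, CHL1 control cells held 84.0 ± 6.28 CPM of CKS2 (mean ± SD, n = 2 here and below) and 52.2 ± 3.84 CPM of CCNB1. CDK1 stood at 26.1 ± 2.23 CPM per kilobase, CKS1B at 24.9 ± 1.37 and CCNA2 at 22.8 ± 3.28. CCNB2 (9.67 ± 1.31), CCNF (8.32 ± 0.736), CCNE2 (7.46 ± 0.796) and CCNE1 (7.01 ± 0.132) lay below these. In A375 controls of 72 hours, CKS2 stood at 111 ± 15.5 CPM per kilobase and CCNE2, the lowest, at 2.97 ± 0.104.

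The promoter windows of these genes are shown because the later-peaking members share short motifs close to their start sites. RefSeq windows (250 bases before to 50 bases after a start site, GRCh38.p14) were found for 8 of the 9 genes, and CDK1 has 2 of them for 2 start sites. The windows were searched on both strands for TTTGAA, the core of the cell cycle homology region (CHR) that the DREAM and B-MYB complexes bind, for CCAAT, the box bound by NF-Y, and for TTTNNCGC, an E2F consensus. Within a window, none of the 34 matches overlapped another. The windows of CDK1 overlap, and an E2F site that lies in both is counted in each. TTTGAA occurred in 5 of 8 genes (CCNB2, CCNF, CDK1, CKS1B and CKS2) and in 15.2% of all 35116 RefSeq windows. CCAAT occurred in 7 of 8 genes, all but CCNE1, and in 34.6% of all windows. TTTNNCGC occurred in CCNF and CDK1, 2 of 8 genes, and in 6.89% of all windows.

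The 120 bases before the start site are printed 5′ to 3′ on the gene's strand for 6 genes, with matches on either strand in capitals. CCNB2, CKS1B and CKS2 show a CCAAT match followed by a CHR match, CCNA2 and CCNB1 show CCAAT only, and CCNE1 shows none of the 3 motifs.
CCNE1 (chr19:29811871-29811990, plus): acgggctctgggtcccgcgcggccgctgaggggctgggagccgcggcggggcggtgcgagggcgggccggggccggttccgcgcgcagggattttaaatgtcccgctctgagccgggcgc
CCNA2 (chr4:121823884-121824003, minus): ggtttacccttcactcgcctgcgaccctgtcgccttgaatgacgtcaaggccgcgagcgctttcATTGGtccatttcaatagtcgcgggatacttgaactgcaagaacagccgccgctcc
CCNB1 (chr5:69167030-69167149, plus): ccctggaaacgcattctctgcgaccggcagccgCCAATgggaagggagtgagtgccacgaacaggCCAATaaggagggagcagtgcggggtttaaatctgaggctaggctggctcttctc
CCNB2 (chr15:59105026-59105145, plus): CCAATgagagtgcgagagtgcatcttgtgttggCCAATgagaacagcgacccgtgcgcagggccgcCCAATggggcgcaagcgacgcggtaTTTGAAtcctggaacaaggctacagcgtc
CKS1B (chr1:154974561-154974680, plus): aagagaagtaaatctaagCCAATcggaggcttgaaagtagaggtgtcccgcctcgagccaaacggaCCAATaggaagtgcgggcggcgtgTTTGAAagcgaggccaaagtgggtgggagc
CKS2 (chr9:89311075-89311194, plus): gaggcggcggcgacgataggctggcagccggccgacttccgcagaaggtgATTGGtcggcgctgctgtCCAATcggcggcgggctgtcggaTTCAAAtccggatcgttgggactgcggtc

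Counting the first transcribed base as 0, the CHR match began at position -29 in CCNB2, -30 in CKS1B and -29 in CKS2, where it lies on the minus strand. The CCAAT match nearest to it began at -54 in CCNB2 and CKS1B and at -52 in CKS2. CCNF has its CHR match farther upstream, at -85. The second start site of CDK1 has CHR matches at -69, -13 and 9 and E2F matches at -128 and -27. A match is a description of the letters, and its absence from CCNE1 says only that these letters are not in this window.

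**Figure D1:**
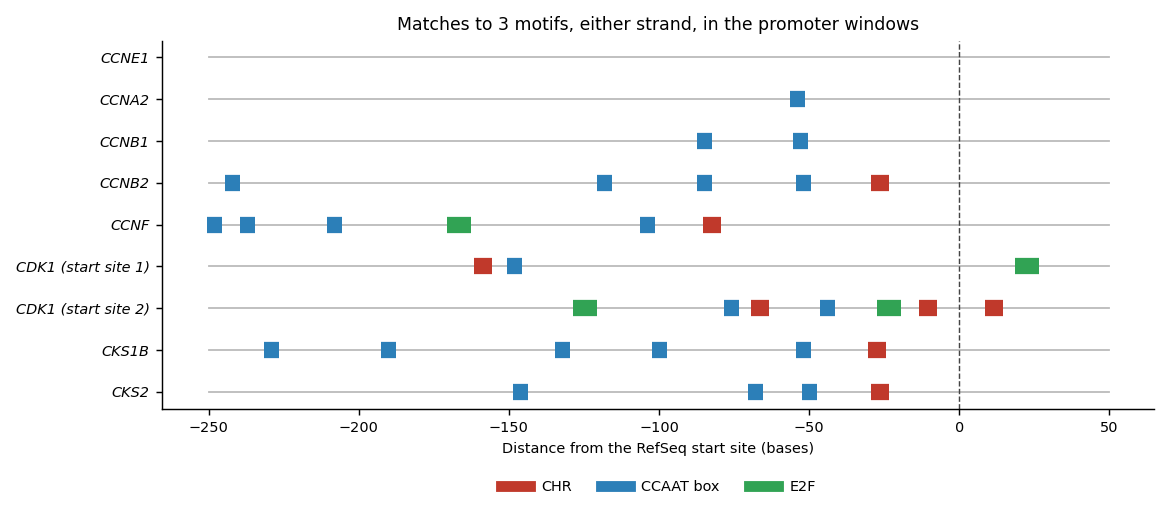
Positions of matches to the CHR (red), CCAAT (blue) and E2F (green) motifs on either strand in the promoter windows of 8 genes, with the distance from the RefSeq start site in bases on the x axis and a dashed line at the start site. The CHR matches of CCNB2, CKS1B and CKS2 fall within 30 bases upstream of the start site, and CCNE1 has no match.

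Across the 9 groups the genes differed widely in how far their level moved. The mean level of CCNE2 was 18.7 times higher in the highest group (CHL1 PRMT5i) than in the lowest (A375 CDK4/6i at 72 hours), and that of CDK1 10.2 times higher between the same groups. CCNA2 spanned 5.93-fold, CCNB1 3.08-fold and CCNB2 3.02-fold. CCNF (2.93-fold), CKS1B (2.62-fold), CKS2 (2.60-fold) and CCNE1 (2.10-fold) spanned less. These levels are not corrected for GC content, and the CHL1 PRMT5i libraries have the GC trend. With the GC correction given below, the log2 fold change of those cells against control was -0.03 for CCNE2 and 0.49 for CDK1. Of the 72 pairs of neighbouring groups in these orders, 41 had overlapping library values, so most neighbouring ranks do not differ beyond the spread of the libraries. When library totals replaced TMM-adjusted sizes, 25 of the 81 ranks changed.

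The highest group was not the same for all genes. CCNE2, CCNA2, CDK1 and CKS2 were highest in CHL1 PRMT5i cells, whose libraries have the GC trend. CCNB1, CCNB2, CCNF and CKS1B were highest in A375 control cells of 72 hours, where the lowest library of CCNB1 (181 CPM) lay above both libraries of the next group (A375 PRMT5i, at most 146 CPM). CCNE1 was highest in CHL1 CDK4/6i cells of 72 hours (20.4 and 20.3 CPM) and lowest in A375 control cells of 72 hours (9.12 and 10.3 CPM), the reverse of the order seen for CCNB1, CCNB2 and CCNF between these groups. The lowest mean of CCNF and CKS1B was in CHL1 PRMT5i cells, where CDK1 and CCNE2 were highest, but their libraries overlapped those of A375 CDK4/6i cells of 6 days.

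**Figure D2:**
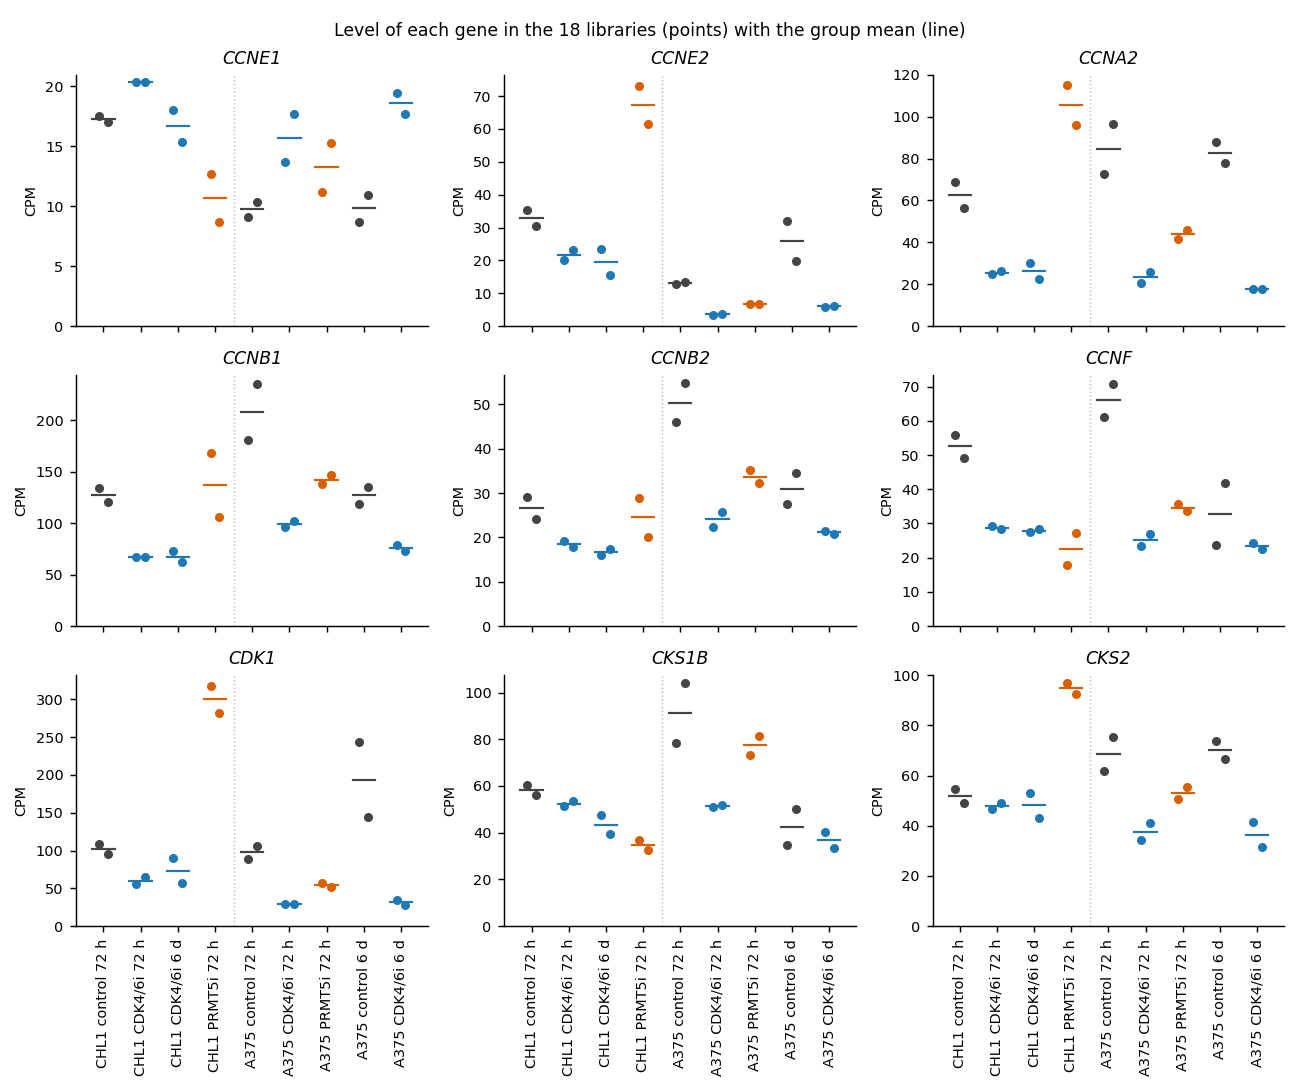
Level of each gene (y axis, TMM-adjusted CPM, starting at 0) in the 18 libraries (points) of the 9 groups (x axis), with the group mean as a line; controls are grey, CDK4/6i blue and PRMT5i orange, and the dotted line parts CHL1 from A375. CDK1 and CCNE2 are highest in CHL1 PRMT5i cells (283 to 318 and 61.7 to 73.1 CPM), whose libraries have the GC trend. The levels are not corrected for GC content. In A375 the CDK4/6i libraries of CCNE1 lie above their controls.

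In CHL1 cells, CDK4/6i for 72 hours lowered cyclins A2, B1 and F, and no member rose. CCNA2 measured 68.9 and 56.2 CPM in control and 24.8 and 26.3 CPM in CDK4/6i cells. The treated libraries lay below both controls, and CCNA2 fell to 0.408 of the control level (log2 fold change -1.29 ± 0.19 SE, adjusted p = 0.00433 in edgeR's quasi-likelihood test). CCNB1 measured 134 and 120 CPM in control and 67.5 CPM in each treated library (-0.91 ± 0.21, adjusted p = 0.029). CCNF, an F-box protein that is also a cyclin by sequence, went from 55.8 and 49.2 to 29.2 and 28.4 CPM (-0.87 ± 0.20, adjusted p = 0.032), and lost its call with the replicate number as a block (adjusted p = 0.0576). These were 0 genes higher and 3 lower of 9, against 2.27% higher and 2.72% lower among all 20705 genes. The median log2 fold change of the 9 genes was -0.61, and 0 over all genes. In bulk RNA, fewer cells in S phase, G2 or mitosis and less RNA of a gene per cell cannot be told apart.

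The other members did not pass the threshold in CHL1 at 72 hours. CDK1 measured 108 and 96.0 CPM in control and 55.5 and 64.9 CPM in treated libraries, which did not overlap (-0.76 ± 0.21, adjusted p = 0.0593). CCNE2 (-0.61 ± 0.21) and CCNB2 (-0.53 ± 0.20) had adjusted p-values of 0.122 and 0.16, and their treated libraries also lay below both controls. CCNE1 (0.24 ± 0.20), CKS1B (-0.15 ± 0.16) and CKS2 (-0.12 ± 0.16) were closest to no change. Without any single library, 0 or 1 of the 9 genes was called: 1 (CCNA2) without control replicate 2 and 0 without control replicate 1 or either treated replicate.

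After 6 days of CDK4/6i, cyclin E2 and cyclin B2 were also below the control in CHL1. CCNE2, which binds CDK2 like CCNE1, measured 35.3 and 30.3 CPM in control and 23.3 and 15.6 CPM at 6 days (-0.73 ± 0.21, adjusted p = 0.0346). CCNB2, a B-type cyclin found at the Golgi, went from 29.2 and 24.1 to 15.97 and 17.41 CPM (-0.66 ± 0.20, adjusted p = 0.0438). Neither pair of treated libraries reached the controls. CCNA2 fell by 1.24 (30.0 and 22.5 CPM, adjusted p = 0.00206), CCNB1 by 0.90 (73.1 and 61.8 CPM, adjusted p = 0.0126) and CCNF by 0.90 (27.4 and 28.4 CPM, adjusted p = 0.0115) on the log2 scale.

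The count at 6 days in CHL1 was 0 higher and 5 lower of 9, against 8.83% and 7.8% of all genes. The median over the 9 genes was -0.66, and 0.03 over all genes. CDK1 differed between the treated libraries (89.5 and 56.5 CPM) and did not pass (-0.47 ± 0.21, adjusted p = 0.153). CKS1B (-0.41 ± 0.16, adjusted p = 0.113), CKS2 (-0.09 ± 0.16) and CCNE1 (-0.03 ± 0.20) did not pass either. Only CCNA2 stayed called when any single library was left out, and the count was then 1 without either control replicate or without treated replicate 2, and 4 without treated replicate 1. Control and treated cells of 6 days also differ in time in culture, which cannot be told apart from the treatment.

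The levels at 6 days and at 72 hours of CDK4/6i were also compared directly in CHL1. Differences ranged from -0.27 to 0.30 on the log2 scale, and 0 of 9 genes passed in edgeR, as in DESeq2, and 0 at an unadjusted p below 0.05. Only 0.0145% of all genes passed. The 95% intervals of the 9 differences lay within -0.71 and 0.76, so changes of that size were not excluded.

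In A375 cells, CDK4/6i for 72 hours lowered 8 of the 9 genes, and CCNE1 alone lay above its control. CCNA2 went from 72.6 and 96.4 CPM in control to 20.5 and 26.0 CPM, or 0.264 of the control level (-1.92 ± 0.19, adjusted p = 2.57e-05). CCNE2 went from 12.7 and 13.4 to 3.49 and 3.70 CPM, or 0.265 of the control level (-1.92 ± 0.25, adjusted p = 0.000133). CDK1, the mitotic kinase itself, went from 88.8 and 107 to 29.9 and 29.2 CPM (-1.78 ± 0.22, adjusted p = 9.79e-05). For all 3 genes the treated libraries lay far below both controls.

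CCNF (61.2 and 70.9 to 23.5 and 27.0 CPM, -1.44 ± 0.24, adjusted p = 0.000972) followed in size. CCNB1 (181 and 235 to 96.2 and 102 CPM) and CCNB2 (46.0 and 54.8 to 22.4 and 25.7 CPM) both stood at 0.46 of the control level (-1.13 ± 0.18 and -1.12 ± 0.19, adjusted p = 0.000829 and 0.00134). The CKS subunits moved least among the genes that fell. CKS2 (61.9 and 75.4 to 34.1 and 41.0 CPM) fell by 0.93 (adjusted p = 0.00471) and CKS1B (78.3 and 104 to 50.8 and 51.8 CPM) by 0.89 (adjusted p = 0.0115) on the log2 scale. The latter 2 are the members whose call was lost when some single libraries were left out, and the count then lay between 6 and 8.

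CCNE1, the other cyclin E, measured 9.12 and 10.3 CPM in control and 13.7 and 17.7 CPM in treated A375 libraries, which did not overlap. Its log2 fold change of 0.63 ± 0.24 did not pass over all genes (adjusted p = 0.0876). It was called in 5 of 10 alternatives, among them a fit of only the 6 libraries of 72 hours (adjusted p = 0.0169). With the GC correction it was not called (adjusted p = 0.0577). With single libraries left out, its log2 fold change lay between 0.44 and 0.81. In all, 0 genes were higher and 8 lower of 9, against 6.22% and 7.11% of all genes, and the median of the 9 was -1.13 beside 0.0018 over all genes.

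At 6 days, CDK4/6i and control A375 cells differed most in CDK1, CCNA2 and CCNE2, and CCNE1 was above its control. CDK1 measured 243 and 144 CPM in the control of 6 days and 35.2 and 28.2 CPM in treated cells, or 0.164 of the control level (-2.60 ± 0.23, adjusted p = 2.77e-06). CCNA2 went from 87.7 and 78.1 to 17.8 CPM in each treated library (-2.22 ± 0.19, adjusted p = 2.77e-06). CCNE2 went from 32.0 and 19.8 to 5.82 and 6.17 CPM (-2.11 ± 0.24, adjusted p = 1.58e-05). For both CDK1 and CCNE2 the 2 control libraries differed widely from each other, and all treated libraries lay below them.

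CCNE1 rose from 8.65 and 11.0 CPM in control to 19.5 and 17.7 CPM, or 1.88 times the control level (0.91 ± 0.23, adjusted p = 0.00509). CKS2 (-0.95 ± 0.19, adjusted p = 0.00109), CCNB1 (-0.75 ± 0.18, adjusted p = 0.00407) and CCNB2 (-0.56 ± 0.19, adjusted p = 0.0281) fell. CCNF did not pass, as its treated libraries (24.4 and 22.6 CPM) overlapped a control of 23.7 and 41.9 CPM (-0.49 ± 0.23, adjusted p = 0.104). CKS1B overlapped likewise (control 34.8 and 50.2 CPM, treated 40.1 and 33.3 CPM, adjusted p = 0.423). The count was 1 higher and 6 lower of 9, against 21.8% and 21.3% of all genes. The median of the 9 was -0.75, and 0.10 over all genes.

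The control libraries of 6 days are those with the GC trend, and both genes that did not pass depended on them. Without control replicate 2, CCNF stood at 0.02 (adjusted p = 0.936), and without replicate 1 at -0.87 (adjusted p = 0.00069). CKS1B went from 0.10 to -0.48 (adjusted p = 0.042) in the same way. CCNB2 lost its call without control replicate 2 or either treated replicate, and the count lay between 6 and 9. After the GC correction, 1 gene was called higher and 5 lower, against 20.9% and 21.4% of the 13675 genes that could be corrected. CCNF was then called (-0.996, adjusted p = 0.000445), whereas CCNB1 (-0.43, adjusted p = 0.0778) and CCNB2 (-0.44, adjusted p = 0.0683) were not. CDK1 (-1.72), CCNA2 (-1.88) and CCNE2 (-1.22) remained called. So did CKS2 (-0.57, adjusted p = 0.0205) and, narrowly, CCNE1 as the gene called higher (0.50, adjusted p = 0.0449). Against the A375 control of 72 hours, which is of the other library set, all of the later-peaking genes were lower, among them CDK1 at -1.67 (adjusted p = 3.26e-05), CCNF at -1.53 (adjusted p = 0.000145) and CKS1B at -1.36 (adjusted p = 0.000161), and CCNE1 was higher at 0.89 (adjusted p = 0.00849).

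The effect of CDK4/6i at 6 days, relative to the control of 6 days, was set against that at 72 hours relative to its own control. The A375 libraries of 6 days and of 72 hours belong to different library sets, and the control of 6 days has the GC trend. A difference between the times therefore cannot be told apart from one of library set or library composition. The differences of the 9 log2 fold changes lay between -0.82 and 0.95, and 0 of 9 genes passed in edgeR and 0 in DESeq2, against 1.08% of all genes. At an unadjusted p below 0.05 there were 3, for which the share of all genes was not computed. The 95% intervals of the 9 differences lay within -1.47 and 1.66, so changes of that size were not excluded. The absence of calls thus does not show that the effects were alike at both times. Without A375 control replicate 2 of 6 days, 4 genes were called, and 0 without any other single library.

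**Figure D3:**
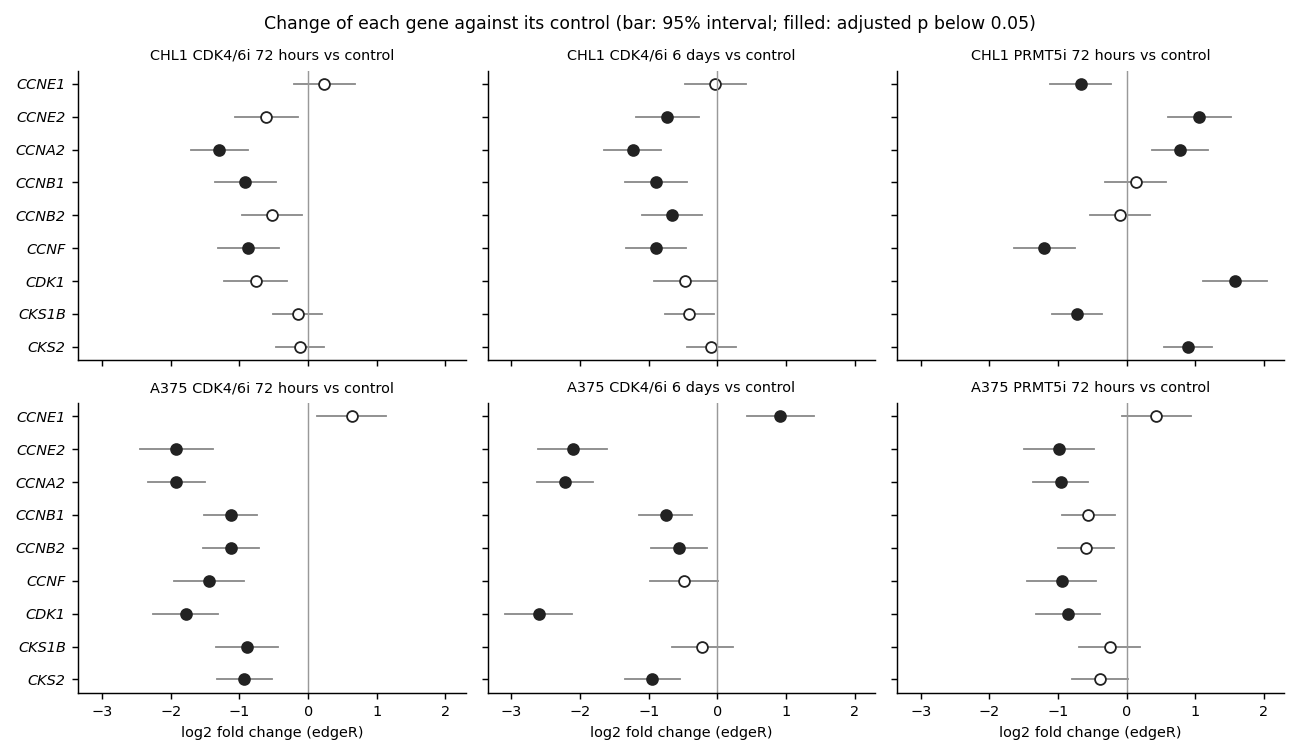
Log2 fold change of each gene (points, edgeR) with its 95% interval (bars) in the 6 comparisons with a control, where filled points have an adjusted p below 0.05 over all 20705 genes. In A375 CDK4/6i cells of 72 hours 8 points lie below 0 and are filled, and in CHL1 PRMT5i cells the genes split into 4 called higher and 3 called lower.

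In CHL1 cells treated with PRMT5i, the 9 genes split. CDK1 measured 108 and 96.0 CPM in control and 318 and 283 CPM in PRMT5i cells, or 2.98 times the control level (1.58 ± 0.21, adjusted p = 0.000158). CCNE2 went from 35.3 and 30.3 to 73.1 and 61.7 CPM (1.06 ± 0.21, adjusted p = 0.00115). CKS2 (54.5 and 49.0 to 96.9 and 92.4 CPM, adjusted p = 0.000708) and CCNA2 (68.9 and 56.2 to 115 and 96.0 CPM, adjusted p = 0.00413) rose by 0.89 and 0.78 on the log2 scale. In these 4 genes both treated libraries lay above both controls.

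Cyclins F and E1 and CKS1B went the other way. CCNF went from 55.8 and 49.2 to 17.7 and 27.3 CPM, or 0.435 of the control level (-1.20 ± 0.20, adjusted p = 0.000459). CKS1B, which also helps the SKP2 ubiquitin ligase to recognise p27, went from 60.5 and 55.9 to 36.9 and 32.7 CPM (-0.72 ± 0.16, adjusted p = 0.00276). CCNE1 went from 17.5 and 17.0 to 12.6 and 8.71 CPM (-0.67 ± 0.21, adjusted p = 0.0152). The B cyclins did not pass, as CCNB1 (168 and 106 CPM, adjusted p = 0.626) and CCNB2 (29.0 and 20.2 CPM, adjusted p = 0.727) differed widely between treated libraries and overlapped the controls. The count was 4 higher and 3 lower of 9, against 26.4% and 27.6% of all genes, and the median of the 9 was 0.13 beside 0 over all genes. CCNE1 lost its call without either control replicate or PRMT5i replicate 2, and CCNA2 without control replicate 2.

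In these libraries, which have the GC trend, the direction of most changes went with the GC content of the transcript. The 4 genes called higher had GC contents of 36.9% to 41.9%, and CCNE1 and CCNF, at 51.7% and 57.3%, were lower, as was CKS1B at 43.7%. After the GC correction, 1 gene was called higher and 1 lower, against 17% and 17.5% of the corrected genes. CDK1 remained higher (0.49 ± 0.15, adjusted p = 0.0263) and CKS1B lower (-1.13 ± 0.12, adjusted p = 0.000238). CCNE2 then stood at -0.03 ± 0.15, CCNA2 at 0.16 ± 0.15, CKS2 at 0.23 ± 0.11, CCNE1 at -0.16 ± 0.21 and CCNF at -0.20 ± 0.12. Both PRMT5i libraries of CHL1 had the trend and no other library of that group exists here, so treatment and library composition cannot be told apart.

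**Figure D4:**
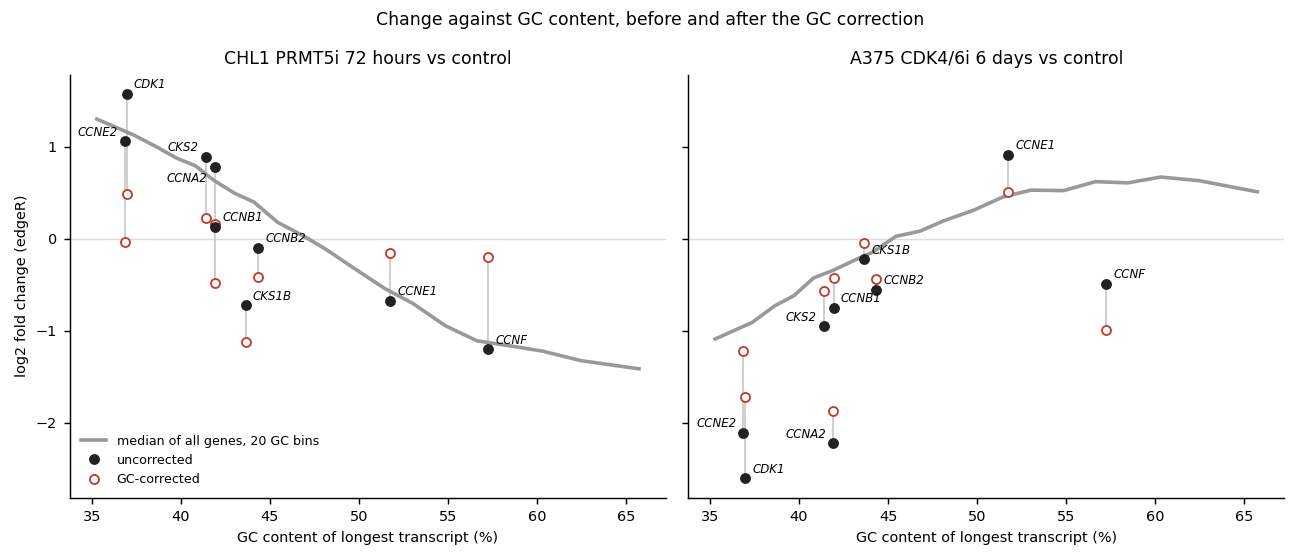
Log2 fold change (y axis, edgeR) against GC content of the longest transcript (x axis, %) for CHL1 PRMT5i cells (left) and A375 CDK4/6i cells of 6 days (right). The grey line is the median of all genes in 20 GC bins, black points are the 9 genes uncorrected and open red points the same genes after the GC correction; CDK1 moved from 1.58 to 0.49 on the left and from -2.60 to -1.72 on the right.

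In A375 cells, PRMT5i lowered CCNE2, CCNA2, CCNF and CDK1. CCNE2 went from 12.7 and 13.4 to 6.63 and 6.62 CPM, or 0.503 of the control level (-0.99 ± 0.24, adjusted p = 0.0394). CCNA2 went from 72.6 and 96.4 to 41.6 and 46.0 CPM (-0.96 ± 0.19, adjusted p = 0.0144). CCNF (35.7 and 33.5 CPM, -0.94 ± 0.24, adjusted p = 0.0454) and CDK1 (56.7 and 52.4 CPM, -0.85 ± 0.22, adjusted p = 0.0498) passed narrowly. None of these treated libraries reached a control library.

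The remaining members did not pass in A375 PRMT5i cells. CCNB1 (138 and 146 CPM, -0.56 ± 0.18) and CCNB2 (35.2 and 32.2 CPM, -0.59 ± 0.19) lay below both controls with adjusted p-values of 0.121 and 0.122. CKS2 (-0.39 ± 0.19), CKS1B (-0.25 ± 0.21) and CCNE1 (0.43 ± 0.24) were nearer to their controls. The count was 0 higher and 4 lower of 9, against 0.874% and 1.74% of all genes, with a median of -0.59 beside 0 over all genes. No call survived the removal of any single A375 library of these groups, and with only those genes kept that reached 1 CPM in 2 libraries, 2 genes were called. With the replicate number as a block in the 6 libraries of 72 hours, 9 were called, 1 higher and 8 lower. The share of all genes called in that fit was not computed, so this count cannot be read as a result about the 9 genes.

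PRMT5i and CDK4/6i were compared at 72 hours within each line, at 1 dose of each agent, so the values describe these doses. In A375, CCNA2 (0.96 ± 0.19, adjusted p = 0.0097), CDK1 (0.93 ± 0.22, adjusted p = 0.0242) and CCNE2 (0.93 ± 0.26, adjusted p = 0.0458) were higher in PRMT5i than in CDK4/6i cells. These were 3 of 9 genes, against 5.45% of all genes, and 0 remained when any single library of the compared groups was left out. The median log2 difference of the 9 genes was 0.57, beside 0.011 over all genes. CCNE1 had overlapping libraries and a difference of -0.20 (adjusted p = 0.678).

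In CHL1, 7 of 9 genes differed between the agents, against 57.8% of all genes. CDK1 was 5.06 times (2.34 ± 0.22, adjusted p = 1.51e-05), CCNA2 4.2 times (2.07 ± 0.20, adjusted p = 1.52e-05) and CCNE2 3.17 times higher (1.67 ± 0.21, adjusted p = 5.52e-05) in PRMT5i cells. CCNB1 (1.05) and CKS2 (1.01) were also higher, and CCNE1 (-0.91) and CKS1B (-0.57) were lower, on the log2 scale. Without CDK4/6i replicate 2 CKS1B lost its call, and without PRMT5i replicate 2 all 9 genes were called. With the GC correction CCNA2 (1.38, adjusted p = 9.05e-05), CDK1 (1.1997, adjusted p = 0.000167), CCNE2 (0.52, adjusted p = 0.0167) and CKS1B (-1.05, adjusted p = 0.000118) remained called, and CCNF turned from -0.33 (adjusted p = 0.181) to 0.75 (adjusted p = 0.000614).

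The effect of each treatment was then compared between the lines in a fit of all 18 libraries, where a positive value means a higher log2 fold change in CHL1 than in A375. For CDK4/6i at 72 hours the differences lay between -0.45 and 1.25, and 0 of 9 genes passed in edgeR, against 0.642% of all genes. At an unadjusted p below 0.05 there were 4, and DESeq2 called 1, but the shares of all genes for these counts were not computed. For CDK4/6i at 6 days, CDK1 differed by 2.13 ± 0.33 (adjusted p = 0.00039), CCNE2 by 1.36 ± 0.32 (adjusted p = 0.00601), CCNA2 by 0.97 ± 0.27 (adjusted p = 0.0173), CKS2 by 0.85 ± 0.25 (adjusted p = 0.0218) and CCNE1 by -0.97 ± 0.31 (adjusted p = 0.0324). These were 5 of 9, against 21.9% of all genes. CDK1 and CCNE2 stayed called without any single library. CCNE1 kept its call only without A375 control replicate 2, and the count fell to 2 without CHL1 control replicate 2 or CHL1 treated replicate 1. The CHL1 change is against a control of 72 hours and the A375 change against one of 6 days. When the A375 control of 72 hours was used instead, CDK1 differed by 1.14 (adjusted p = 0.0225) and CCNA2 by 0.99 (adjusted p = 0.0166), CCNE2 lost its call (0.37, adjusted p = 0.484), and CKS1B turned from -0.21 to 0.89 (adjusted p = 0.0306). With the GC correction CDK1 (1.15, adjusted p = 0.00144) and CCNA2 (0.71, adjusted p = 0.0409) remained called.

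For PRMT5i, the same 5 genes differed between the lines, against 40.9% of all genes. CDK1 differed by 2.40 ± 0.33 (adjusted p = 0.000149), CCNE2 by 2.02 ± 0.32 (adjusted p = 0.000289), CCNA2 by 1.70 ± 0.27 (adjusted p = 0.000273), CKS2 by 1.25 ± 0.25 (adjusted p = 0.000973) and CCNE1 by -1.14 ± 0.32 (adjusted p = 0.00776). Without A375 PRMT5i replicate 2 CCNE1 lost its call. After the GC correction CDK1 (1.21, adjusted p = 0.00119), CCNA2 (1.07, adjusted p = 0.00485) and CCNE2 (0.83, adjusted p = 0.00942) remained called, CKS2 (0.56, adjusted p = 0.0709) and CCNE1 (-0.55, adjusted p = 0.191) did not, and CCNF (0.80, adjusted p = 0.00671) and CKS1B (-0.94, adjusted p = 0.0284) were called instead. The lines also differ in medium and, at 72 hours, in library set, which cannot be told apart from the line.

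Within a library, scaling drops out of the ratio of a gene to its relative. In CHL1 control libraries CCNE2 had 2.02 and 1.78 times the reads of CCNE1. CDK4/6i libraries of 72 hours had 0.980 and 1.14 times as many, those of 6 days 1.29 and 1.02 times, and PRMT5i libraries 5.78 and 7.07 times. In A375 the ratio was 1.40 and 1.30 in controls of 72 hours, 0.256 and 0.210 after CDK4/6i and 0.594 and 0.434 after PRMT5i. At 6 days it went from 3.70 and 1.80 in control to 0.300 and 0.350. The balance of the cyclin E genes thus moved toward CCNE1 in every CDK4/6i group, without overlap with its control. The groups with the GC trend weigh on these ratios. In the fits, the log2 ratio changed by 1.73 in CHL1 PRMT5i cells and by 0.13 after the GC correction, and by -3.02 and -1.72 in A375 CDK4/6i cells of 6 days.

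CKS2 to CKS1B showed no common direction under CDK4/6i. The ratio was 0.901 and 0.876 in CHL1 control, 0.904 and 0.915 after CDK4/6i at 72 hours and 2.63 and 2.83 after PRMT5i. In A375 it was 0.791 and 0.724 in controls of 72 hours, with CDK4/6i (0.672 and 0.792) overlapping them, and 2.12 and 1.33 in the controls of 6 days. After CDK4/6i at 6 days the ratio was 1.12 and 1.10 in CHL1, above its control. In A375 it was 1.03 and 0.945 at 6 days, below its control. The log2 ratio there changed by -0.73, and by -0.52 after the GC correction. The groups with ratios above 1.32 are those with the GC trend. In CHL1 PRMT5i cells the log2 ratio changed by 1.62, and by 1.35 after the GC correction. CCNB2 to CCNB1 stayed in a narrow band, with group means of the log2 ratio between -2.47 and -1.83.

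**Figure D5:**
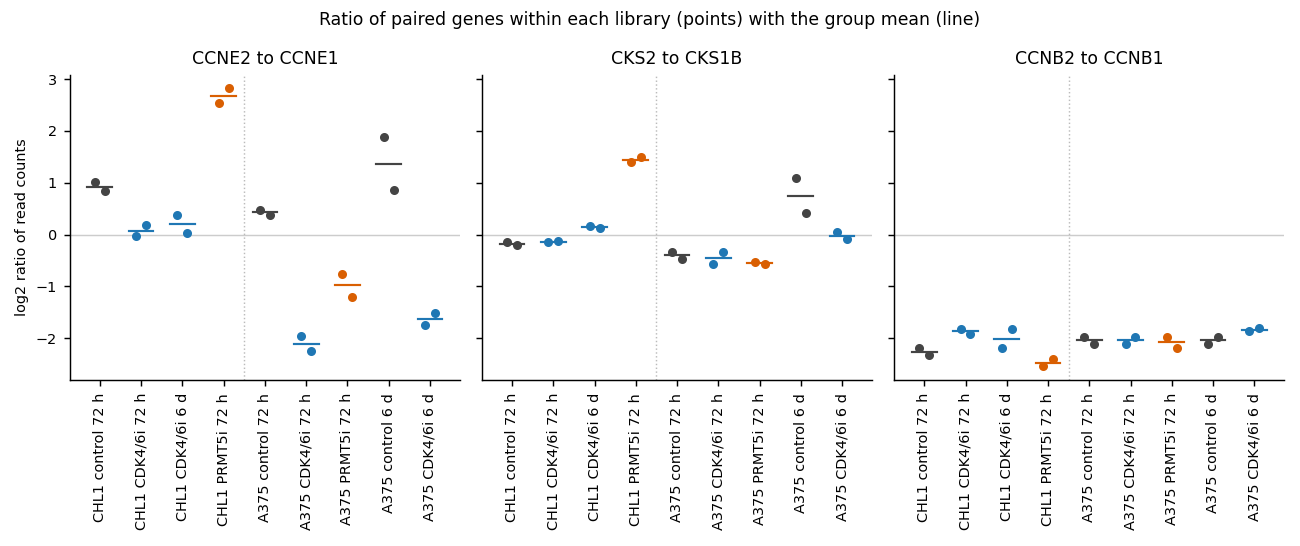
Log2 ratio of read counts within each library (points, with the group mean as a line) for CCNE2 to CCNE1, CKS2 to CKS1B and CCNB2 to CCNB1 in the 9 groups, with controls in grey, CDK4/6i in blue and PRMT5i in orange. CCNE2 to CCNE1 runs from -2.11 in A375 CDK4/6i cells of 72 hours to 2.68 in CHL1 PRMT5i cells, whereas CCNB2 to CCNB1 keeps near -2.

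Over the 18 libraries, which share cell line, treatment and depth within groups, the levels on the log2(CPM + 1) scale moved together in subsets. CDK1 was most like CKS2 (Pearson r = 0.934), CCNB1 like CCNB2 (0.928), CCNA2 like CKS2 (0.918), CCNE2 like CDK1 (0.891) and CCNF like CKS1B (0.777). CCNE1 had a negative r with each of the 8 other genes, from -0.73 with CCNA2 to -0.09 with CKS1B. These are descriptions, since the libraries form groups and the GC trend is part of the pattern.

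The genes outside the 9 with the most similar pattern over the 18 libraries were named for each member. For CCNE2 they were ESCO2, RMI1 and PBK (r = 0.986 to 0.991), for CDK1 RAD51AP1, TMPO and HNRNPR (0.977 to 0.989), and for CCNA2 DMC1, ANLN and PRIM1 (0.9661 to 0.9746). For CKS2 they were SKP2, SPDL1 and ANLN (0.940 to 0.945), and for CCNF ESPL1, AURKB and HIST1H2BO (0.953 to 0.961). Genes near CCNB1 were HMGN2 (0.944) and RACGAP1 (0.941), and genes near CCNB2 were BUD13 (0.920) and CDCA7L (0.912). CKS1B was nearest to ARRB2, TK1 and MID1IP1 (0.925 to 0.934), and CCNE1 to ATP6V1E1, CDC42SE1 and NOMO3 (0.888 to 0.902).

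Of the other genes that act on these cyclins and kinases, 46 were in the table, and they fell more often than they rose under CDK4/6i. In CHL1, 1 was higher and 7 were lower at 72 hours, and 4 were higher and 12 lower at 6 days. In A375, 3 were higher and 20 lower at 72 hours, and 5 were higher and 23 lower at 6 days. As shares of the 46 genes, 15.2% were lower in CHL1 and 43.5% in A375 at 72 hours, beside 2.72% and 7.11% of all genes. The shares called higher at 72 hours were 2.17% and 6.52%, beside 2.27% and 6.22% of all genes. At 6 days in CHL1, 8.7% were higher and 26.1% lower, beside 8.83% and 7.8% of all genes. At 6 days in A375, 10.9% were higher and 50% lower, beside 21.8% and 21.3% of all genes. With the GC correction 5 were higher and 25 lower there, of 44 genes that could be corrected. Among all corrected genes these shares were 20.9% and 21.4%. PRMT5i left 18 higher and 17 lower in CHL1, and 2 higher and 5 lower in A375. In CHL1 PRMT5i cells these are shares of 39.1% and 37%, beside 26.4% and 27.6% of all genes. After the GC correction 6 were higher and 4 lower there, of 44 genes that could be corrected. Among all corrected genes 17% were higher and 17.5% lower. In A375 PRMT5i cells the shares of the 46 genes were 4.35% and 10.9%, beside 0.874% and 1.74% of all genes. The mRNA of the drug targets was abundant to different degrees, with CDK6 at 9.79 to 16.9 CPM in CHL1 and 495 to 1173 CPM in A375, and PRMT5 at 4.26 to 9.46 and 4.48 to 20.2 CPM.

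The transcription regulators of the 9 genes were the largest of these lists. Of 16 in the table, 5 were lower in CHL1 CDK4/6i cells at 72 hours and 9 in A375, and none was called higher in either. Among all genes 2.72% and 7.11% were lower. MYBL2, which encodes B-MYB, fell by 1.16 in CHL1 (adjusted p = 0.0101). E2F2, an activating E2F, fell by 2.24 in A375 (adjusted p = 8.16e-05). In A375 PRMT5i cells 3 were lower, beside 1.74% of all genes, with E2F2 at -1.16 (adjusted p = 0.0278). In CHL1 PRMT5i cells 8 were higher and 5 lower, beside 26.4% and 27.6% of all genes. After the GC correction 2 were higher and 1 lower there, beside 17% and 17.5% of corrected genes.

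Upstream of these, CCND1, which encodes the partner of CDK4 and CDK6, was the gene of the D-cyclin list with the largest rise among those called under CDK4/6i. Its log2 fold change was 1.34 in CHL1 (adjusted p = 0.00141) and 0.90 in A375 (adjusted p = 0.0063) at 72 hours. CDKN2C, an inhibitor of CDK4 and CDK6, fell by 0.74 (adjusted p = 0.043) and 0.86 (adjusted p = 0.00705).

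Among 5 inhibitors of CDK1 and CDK2, CDKN1A, the p53 target that encodes p21, rose in A375. It rose by 1.52 after CDK4/6i at 72 hours (adjusted p = 0.00215) and by 1.94 after PRMT5i (adjusted p = 0.00305). In CHL1 CDK4/6i cells of 72 hours 0 of the 5 were called, and at 6 days CDKN1B, which encodes p27, rose by 0.93 (adjusted p = 0.00456) and CDKN1C, which encodes p57, fell by 0.90 (adjusted p = 0.0261). In A375 at 6 days 4 of the 5 fell, beside 21.3% of all genes, among them CDKN1C by 2.10 (adjusted p = 0.000118) and CDKN1B by 1.57 (adjusted p = 0.000101). With the GC correction 4 were again lower, beside 21.4% of corrected genes. In CHL1 PRMT5i cells 2 were higher and 3 lower, beside 26.4% and 27.6% of all genes. After the GC correction 1 was higher and 0 lower. CDKN1A stood at -1.01 in these cells (adjusted p = 0.00796), or 0.02 after the GC correction (adjusted p = 0.949). PKMYT1, a kinase that inhibits CDK1, fell by 1.55 in A375 CDK4/6i cells of 72 hours (adjusted p = 0.0016).

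Among 6 activators, CDC25A, a phosphatase that activates CDK2, fell by 0.90 in CHL1 (adjusted p = 0.0191) and by 1.32 in A375 (adjusted p = 0.000537) at 72 hours of CDK4/6i. Of 9 genes for the degradation of cyclins and CDK inhibitors, 0 were called in CHL1 and 5 were lower in A375 at that time. Of all genes, 2.72% and 7.11% were lower in these comparisons. FBXO5, an inhibitor of the anaphase-promoting complex, fell by 1.66 in A375 (adjusted p = 7.41e-05). CDC25C, the phosphatase that activates CDK1 at mitosis, fell by 1.17 in A375 PRMT5i cells (adjusted p = 0.00762).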

How the data were processed

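The authors aligned paired poly-A reads to GRCh37 with Hisat and counted them on genes with HTSeq. Strandedness is not given in the sources used here. They deposited a table of whole-number counts, used here as raw counts although its name speaks of normalised values. CPM values used TMM-adjusted library sizes over all 18 libraries. edgeR 4.0.16 (quasi-likelihood test, TMM, prior count 0.125, R 4.3.3) was fitted per cell line, with 8 CHL1 or 10 A375 libraries, and to all 18 libraries for differences between lines. Benjamini-Hochberg adjustment covered all 20705 genes, with a threshold of 0.05. Standard errors follow from the log2 fold change and the F statistic. The GC correction entered a loess curve (span 0.4) of each library's log2 deviation on transcript GC content (GENCODE 44 on GRCh37) as an offset, for 13675 genes that have a GC value and average 1 CPM or more. A gene is named if it is a member, a marker, a drug target, the called gene with the largest rise or fall of a list, or among the 3 nearest patterns of a member. Some of the latter are not reported here. CDKN1B in A375 at 6 days and CDKN1A in CHL1 PRMT5i cells fall outside this rule and were named after their values were seen. DESeq2 1.42.0 and other alternatives are given below. Replicates share numbers that no label ties to a batch, so they were not paired. The genes, lists and tests were chosen with earlier results of these data known. The edgeR script was tested on simulated data. Molecular identifiers are not mentioned for these libraries, and duplicate reads may inflate the counts. CKS1B has processed pseudogenes, and reads shared with them may be uncounted.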

Additional observations from a re-analysis of the deposited data

Results flagged for a closer look

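The response of 5 genes to the same treatment differed between CHL1 and A375 in a test of the difference itself (edgeR, 18 libraries, positive values for a higher log2 fold change in CHL1). After 6 days of CDK4/6i the differences were 2.13 for CDK1, 1.36 for CCNE2, 0.97 for CCNA2, 0.85 for CKS2 and -0.97 for CCNE1. After PRMT5i they were 2.40 for CDK1, 2.02 for CCNE2, 1.70 for CCNA2, 1.25 for CKS2 and -1.14 for CCNE1. Among all genes, 21.9% differed for CDK4/6i at 6 days and 40.9% for PRMT5i. With the GC correction, of these 5 genes only CDK1 and CCNA2 remained called for CDK4/6i at 6 days. For PRMT5i only CDK1, CCNA2 and CCNE2 remained called. The changes at 6 days are relative to a control of 72 hours in CHL1 and of 6 days in A375. Against the A375 control of 72 hours CDK1 differed by 1.14 and CCNE2 by 0.37, the latter no longer past the threshold. Both comparisons hold a group with the GC trend, the A375 control of 6 days or the CHL1 PRMT5i cells, whose part was measured only through the GC correction given with the results. Groups of 2 libraries are too small for a check of single outlying libraries.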

How the results depend on the processing

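The text's counts of called genes changed with some settings. Except where a share with the GC correction is given above, the share of all genes called under these settings was not computed. For CHL1 CDK4/6i at 72 hours 5 genes passed with the GC correction, 6 in a fit of only the compared groups, 2 with a replicate block, 5 with the block and the GC correction, and 0 to 1 with single libraries left out. For CHL1 CDK4/6i at 6 days leaving out libraries gave 1 to 4. For CHL1 PRMT5i the GC correction gave 2 and the block with it 3. For A375 PRMT5i, a filter of 1 CPM in 2 libraries and the genes with a GC value without correction gave 2, the replicate block 9, the block with the GC correction 8, and leaving out libraries 0. For A375 PRMT5i against CDK4/6i, the block, the block with GC correction and the 6 libraries of 72 hours alone gave 8, and leaving out libraries 0. The line difference for CDK4/6i was 2 at 72 hours with the GC correction and 1 in DESeq2, and at 6 days 2 with the GC correction and 2 to 6 with libraries left out. The A375 time difference gave 0 to 4 with libraries left out.

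Signs reversed in few cases. With the GC correction CHL1 PRMT5i values were -0.033 for CCNE2 and -0.48 for CCNB1, and with the block added -0.038 and -0.50. CCNF became 0.75 against CDK4/6i in CHL1, also with the block, and 0.0058 and 0.80 in the line differences for CDK4/6i at 6 days and PRMT5i. With single libraries left out, CHL1 6-day values ran from -0.17 to 0.092 for CCNE1 and from -0.26 to 0.062 for CKS2, CHL1 PRMT5i values from -0.23 to 0.42 for CCNB1 and from -0.38 to 0.14 for CCNB2, and A375 6-day values from -0.87 to 0.018 for CCNF and from -0.48 to 0.10 for CKS1B. Line differences at 6 days ran from -0.31 to 0.026 for CCNB2 and from -0.52 to 0.031 for CKS1B, and for PRMT5i from -0.58 to 0.012 for CCNF. Against the A375 control of 72 hours, an alternative chosen after seeing the data, the line differences at 6 days turned to 0.55 for CCNB1, 0.58 for CCNB2, 0.58 for CCNF and 0.89 for CKS1B, and 5 genes were called.

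Same-numbered libraries had deviations correlated between -0.34 and 0.44 in CHL1 and between 0.22 and 0.48 in A375 at 72 hours. No label says that a number marks a shared batch, so the block is given as an alternative, although in A375 the numbers may mark one. Of the 90 gene results, DESeq2 left 87 on the same side of the threshold, and median-of-ratios factors 87. Where a left-out library leaves a group with 1, that library is assumed to vary like the other groups. The cause of these changes was not tested.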
